A study of Homo sapiens with 6 samples.

Results

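The genes described here are 49 genes of mitosis and the spindle checkpoint, taken as a named list of G2/M, spindle and kinetochore genes whose counts average 50 or more per library. All 49 passed that minimum, out of 11909 measured genes of 52992 with a gene name. The lowest mean count among them was 456.7, for SPC24, and the highest was 18193, for MKI67, so none lay near the minimum. They were divided by role into 16 regulators, 13 genes of the kinetochore and checkpoint, 11 kinesins and spindle proteins, and 9 genes of cytokinesis and the chromosome passengers. The stated rule uses names and mean counts, not changes, but the list was drawn up with results of these libraries known.

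The cells were J82, an established line from a human bladder cancer. The tet-ZFP36L1 line overexpresses ZFP36L1, an RNA-binding protein known for destabilising mRNAs with AU-rich elements in their 3' UTRs, when doxycycline is given, and the tet-control line is its control. Cells were grown to 90% confluence and received doxycycline at 1 µg/mL for 6 or 24 h, and the 0 h groups of both lines received none. Each of the 6 groups has 1 library, so no spread between cultures can be estimated, tests between groups were not run and p-values are not given. The labels do not say whether either line is a clone, which promoter drives the construct, or how the control construct was built.

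Cells enter mitosis when CDK1, bound to a cyclin, is switched on by CDC25 phosphatases, supported by the Polo and Aurora kinases. Kinetochores, protein plates on the centromeres, hold the chromosomes on spindle microtubules, and the spindle checkpoint keeps the anaphase-promoting complex inactive until each is attached. This ubiquitin ligase then marks securin and cyclin B for destruction, sister chromatids part, and the passenger complex and central spindle direct cytokinesis. The mRNAs of most of these proteins are made mainly in G2 and M, so in a bulk culture their level follows the share of cells in those phases. In such data fewer cells in G2 and M and less of each mRNA per cell cannot be told apart.

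Libraries held 20739025 to 21380480 estimated counts, of which 19605308 to 20245037 fell on named genes. The library of tet-ZFP36L1 at 24 h stood apart: its TMM factor (a scaling for the make-up of the library) was 1.115 against 0.941 to 1.006 in the others, and 15695 genes reached 10 counts in it against 14515 to 14956. In it the genes with the highest counts also leaned down, with a median own change of -0.18 on the log2 scale in the highest of 5 classes of mean count and 0.21 in the lowest, and 36 of the 49 members lie in that highest class. Every 24 h value of tet-ZFP36L1 below, and every difference made from one, rests on that library, and with 1 per group it cannot be left out. The induced gene matched its labels: ZFP36L1 stood at 233.8 CPM in tet-control and 220.2 CPM in tet-ZFP36L1 at 0 h, and in the latter reached 3127 CPM at 6 h and 3133 CPM at 24 h. CPM is counts per 1000000 counts after TMM scaling. Keratins were present at summed levels of 679 to 1611 CPM, while the 10 urothelial markers, 2 of them at 0 in every library, together reached 18.2 to 34.7 CPM, and leukocyte and endothelial markers were each under 1 CPM in sum. The 4 mesenchymal markers summed to 1210, 1653 and 1379 CPM in tet-control at 0, 6 and 24 h and to 11441, 13658 and 3593 CPM in tet-ZFP36L1. A single gene held 11892 of the 13658 CPM, so the sum does not describe the 4 markers alike. The lines thus differed in this sum before doxycycline. In tet-ZFP36L1 it was lowest at 24 h, as the sum of the members was, and its part in the results below was not tested.

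At 24 h the mitotic genes were lower in induced tet-ZFP36L1 cells and slightly higher in the control line. Together the 49 genes held 9903, 10257 and 11545 CPM in tet-control at 0, 6 and 24 h, and 10540, 10115 and 6116 CPM in tet-ZFP36L1. The 24 h library of tet-ZFP36L1 therefore had 0.580 times the sum of its own 0 h library, against 1.17 times in tet-control. Among role groups the sum of the regulators was smallest relative to 0 h, at 0.485 times, followed by 0.610 times for kinesins and spindle proteins, 0.625 times for cytokinesis and passengers, and 0.663 times for kinetochore and checkpoint genes.

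**Figure D1:**
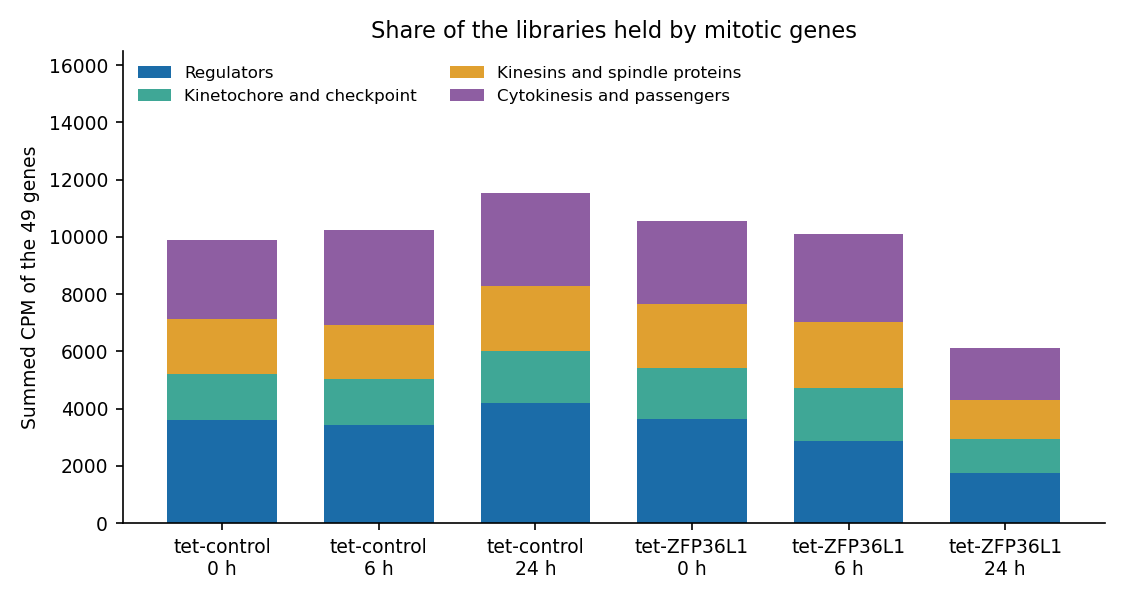
Summed CPM (TMM-scaled counts per 1000000) of the 49 mitotic genes in each of the 6 libraries, stacked by role. The sums of 5 libraries lie between 9903 and 11545 CPM and that of tet-ZFP36L1 at 24 h is 6116 CPM.

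A pair of quantities describes each gene, both on the scale of log2(CPM + 0.5). The own change is the 24 h or 6 h library of a line against its 0 h library, and the induction difference is the own change of tet-ZFP36L1 minus that of the control line. Lower here means that both were at least 1.5-fold down, and higher that both were at least 1.5-fold up. Ranges in parentheses are 95% intervals from the counts, which hold counting error only, since reads that carry no molecular identifier may be copies of 1 molecule and cultures were not replicated. The 6 h and 24 h differences share the 0 h libraries.

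At 24 h, 36 of the 49 members were counted as lower, where 14.3% of all measured genes were, and 0 were counted as higher, where 9.45% of all genes were. Among genes of like abundance the background was 19.4% in the highest class of mean count and 15.9% in the next, which hold 36 and 9 of the members. With a 2-fold rule 14 members were lower, against 4.97% of all genes. With the lines exchanged, to read the control line against the inducible one, 1.21% of all genes were lower at 1.5-fold. The median induction difference was -0.92 over the members and -0.02 over all measured genes. With plain CPM, which leaves out the scaling for library make-up, 22 members were lower against 9.72% of all genes, and 22, against 13.6%, when the median of genes of like mean count was taken off, an alternative added after the values were seen.

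No member went the other way. In tet-ZFP36L1 the 24 h own change was below 0 in 49 of 49 members, against 51.2% of all genes, and each counting interval lay wholly below 0, against 40.2% of all genes. The induction difference was also below 0 in all 49, against 51.6%, with every interval wholly below 0, against 36.7%. In tet-control 46 members were above their 0 h level, against 49.1% of all genes, with a median of 0.20, and these 46 were the ones that moved in opposite directions in the lines, as 24.6% of all genes did. The other 3 were MAD2L1, KIF14 and ECT2, with own changes in tet-control of -0.02, -0.02 and -0.12.

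**Figure D2:**
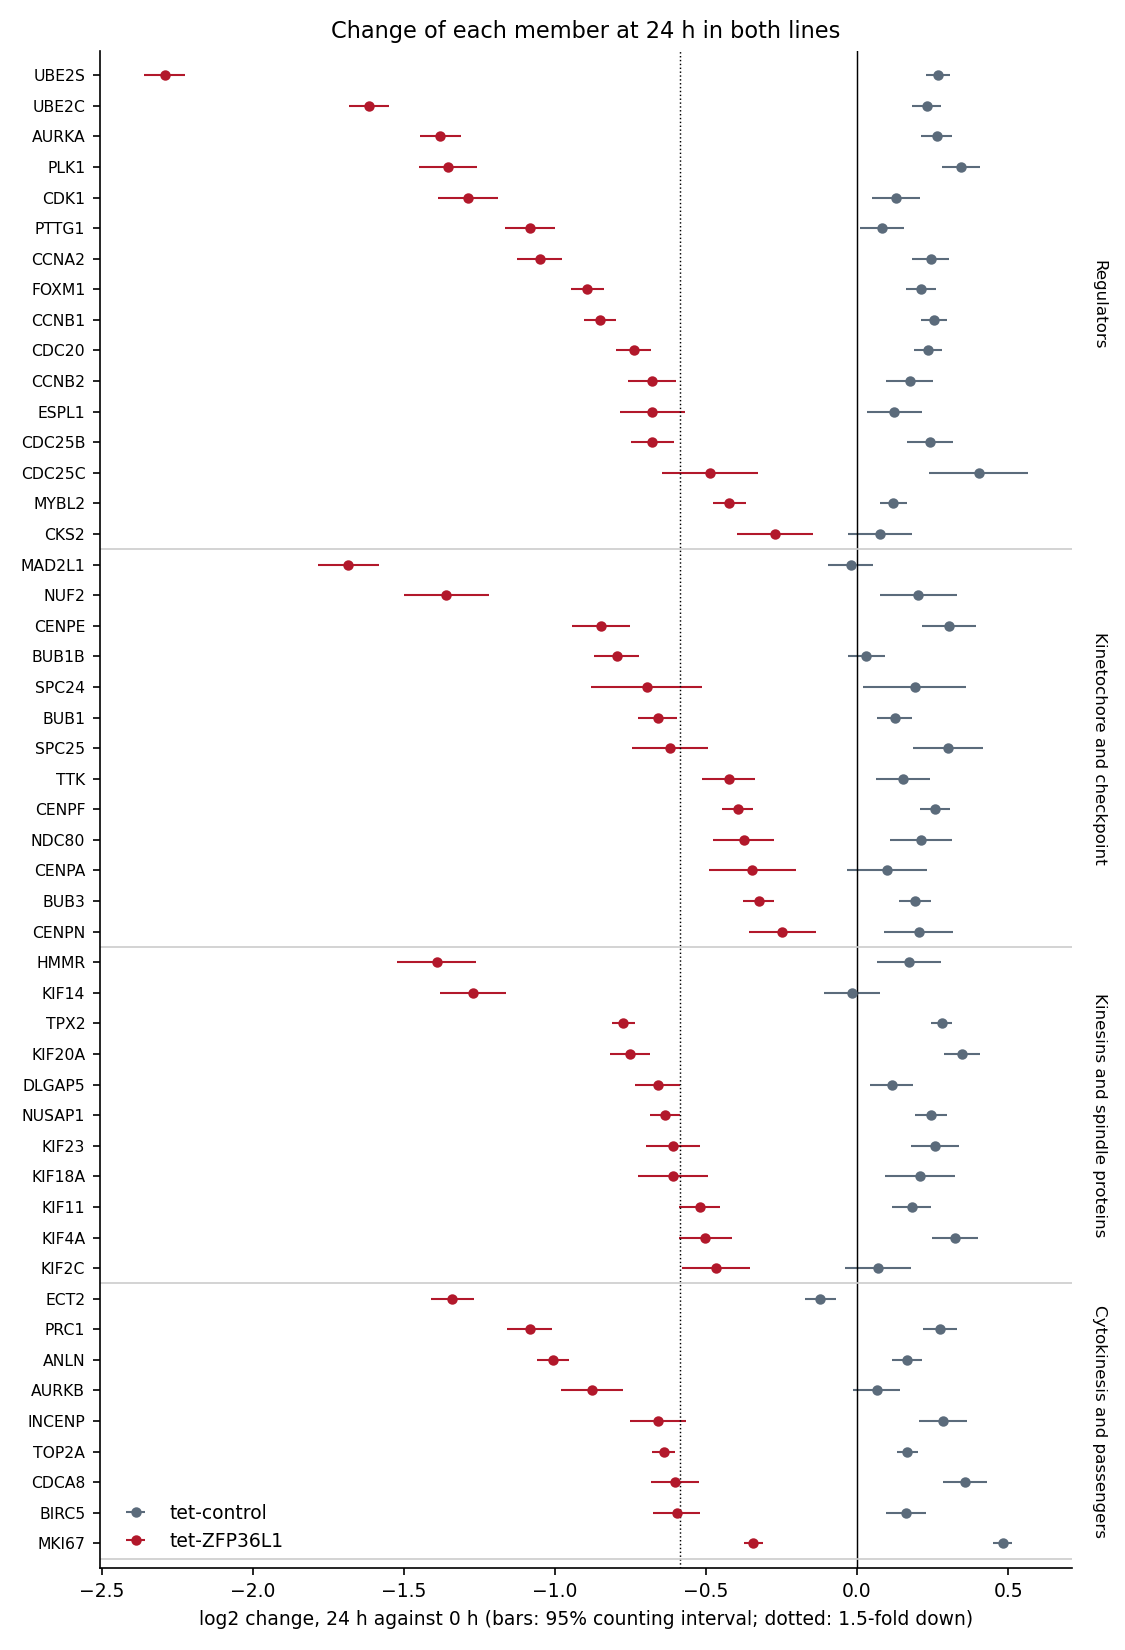
Change from 0 to 24 h (log2) of each of the 49 members in tet-control (grey) and tet-ZFP36L1 (red), ordered within role groups, with 95% counting intervals as bars and 1.5-fold down as a dotted line. Every red point lies left of 0, from UBE2S at -2.29 to CENPN at -0.25, and 46 grey points lie right of it.

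The library of tet-ZFP36L1 at 24 h was the lowest of the 6 in 44 members, against 29.1% of all genes. The other 5, NUSAP1, SPC25, SPC24, CDC25C and CCNB2, were lowest in tet-control at 6 h, a library that was lowest for 18.1% of all genes. The highest library was tet-control at 24 h for 21 members, against 12.4%, and tet-ZFP36L1 at 6 h for 16, against 17.9%. Compared directly at 24 h, without the 0 h libraries, all 49 were lower in tet-ZFP36L1 than in tet-control, against 52.7% of all genes, and 35 were at least 1.5-fold lower, against 20.3%, with a median of -0.87. By the induction difference alone 42 were at least 1.5-fold lower, against 17.4%.

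The lines did not start level, and the start was opposite to the end. At 0 h the members had a median of 0.16 in tet-ZFP36L1 relative to tet-control, 35 of them above 0 against 49.7% of all genes. The range ran from AURKB at -0.42 to CDC25B at 0.61, and CDC25B was the member that differed by at least 1.5-fold. An induction difference takes off this starting gap, so it is more negative than the difference between the lines at 24 h for the 35 genes that started higher.

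**Figure D3:**
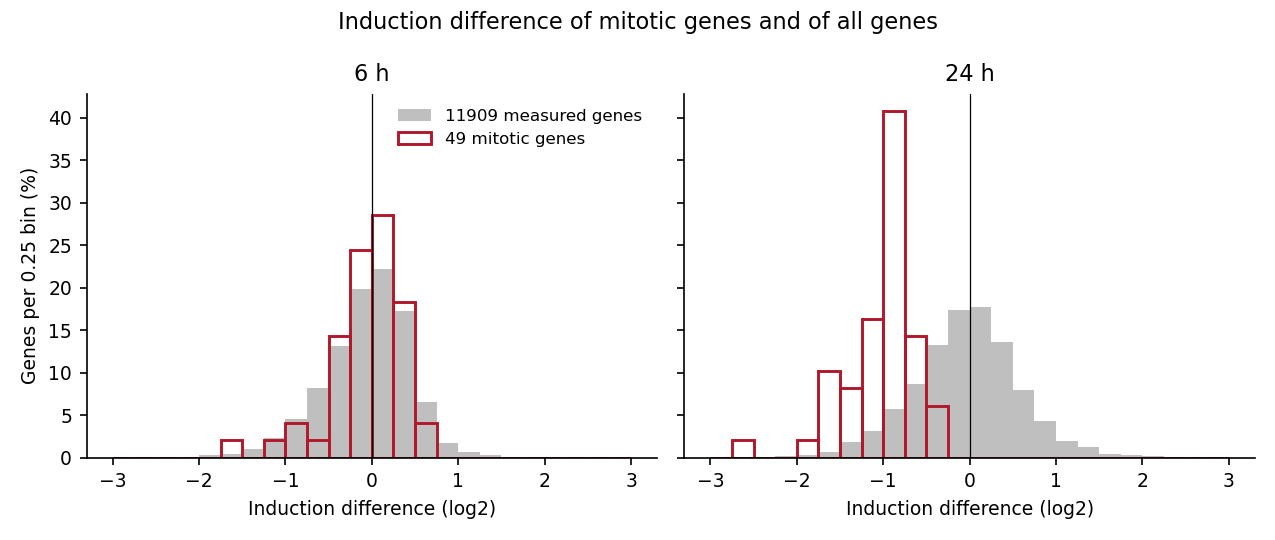
Share of genes (%) per 0.25 bin of the induction difference (log2) at 6 h and 24 h, for all 11909 measured genes (grey) and the 49 mitotic genes (red outline). At 6 h the members' median is 0.01 and that of all genes -0.01, and at 24 h they are -0.92 and -0.02.

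The regulators had the lowest median of the 4 groups. Of the 16, 13 were counted as lower at 24 h and 7 by the 2-fold rule, against 14.3% and 4.97% of all measured genes. In the highest class of mean count these shares were 19.4% and 6.59%. The regulators had a median induction difference of -1.11. The largest belonged to the ubiquitin-conjugating enzymes of the anaphase-promoting complex. UBE2S, which lengthens the ubiquitin chains (ENSG00000108106, chr19:55399745-55407777, minus strand, GRCh38), stood at 469.8, 435.4 and 566.2 CPM in tet-control at 0, 6 and 24 h and at 474.4, 132.8 and 96.4 CPM in tet-ZFP36L1. Its control values lay between 435.4 and 566.2 CPM, and both induced libraries were far below all 4 others. The induction difference was -1.72 (-1.80 to -1.65) at 6 h and -2.56 (-2.64 to -2.48) at 24 h, and the 24 h level was 0.204 times that at 0 h.

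UBE2C, which starts the chains (ENSG00000175063, chr20:45812576-45816957, plus strand), stood at 304.6, 343.4 and 357.3 CPM in tet-control at 0, 6 and 24 h and at 349.5, 173.9 and 113.7 CPM in tet-ZFP36L1. As with UBE2S, the 6 h and 24 h libraries of tet-ZFP36L1 were the lowest of the 6, in that order of time. Its induction difference was -1.18 (-1.26 to -1.10) at 6 h and -1.85 (-1.93 to -1.76) at 24 h. Per transcript length these enzymes had the highest levels among the members in tet-control at each time and in tet-ZFP36L1 at 0 h: UBE2S was at 709.0, 638.7 and 846.4 TPM in tet-control and 756.2, 207.1 and 165.1 TPM in tet-ZFP36L1 at 0, 6 and 24 h, and UBE2C at 621.8, 691.0 and 717.1 TPM in tet-control and 772.0, 362.7 and 255.8 TPM in tet-ZFP36L1. In the induced libraries CCNB1 was highest at 6 h, at 407.9 TPM, and NUSAP1 at 24 h, at 269.7 TPM. At 0 h in tet-control CENPE was lowest at 13.9 TPM.

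Among the regulators, the mitotic kinases PLK1, AURKA and CDK1 were lower at 24 h in tet-ZFP36L1, and less so at 6 h. PLK1, a Polo kinase of centrosome maturation and mitotic entry (ENSG00000166851, chr16:23677656-23690367, plus strand), stood at 181.8, 183.5 and 231.0 CPM in tet-control at 0, 6 and 24 h and at 140.0, 100.6 and 54.5 CPM in tet-ZFP36L1. The control line was highest at 24 h, and tet-ZFP36L1 was below every control library at each time, 0 h included. Its induction difference at 24 h was -1.70 (-1.81 to -1.58), against -0.49 (-0.59 to -0.38) at 6 h.

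AURKA, the Aurora kinase of the spindle poles, stood at 274.8, 279.4 and 329.9 CPM in tet-control at 0, 6 and 24 h and at 294.3, 223.0 and 112.8 CPM in tet-ZFP36L1. Its 24 h level in tet-ZFP36L1 was under all 5 other libraries, and its induction difference was -1.64 (-1.73 to -1.56). CDK1, the kinase at the centre of mitotic entry, stood at 121.0, 119.9 and 132.4 CPM in tet-control at 0, 6 and 24 h and at 125.3, 86.4 and 51.0 CPM in tet-ZFP36L1. Before doxycycline the lines differed little in CDK1, and at 24 h its induction difference was -1.42 (-1.55 to -1.29).

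The cyclin partners of CDK1 were also lower, CCNB1 and CCNB2 with smaller induction differences than CDK1. CCNA2, cyclin A2, had an induction difference at 24 h of -1.29 (-1.39 to -1.20), an interval that overlaps that of CDK1. CCNB1, cyclin B1, had -1.11 (-1.17 to -1.04) and CCNB2, cyclin B2, -0.85 (-0.96 to -0.74). This order depends on the 0 h libraries. Directly between the lines at 24 h, CDK1 was at -1.37 (-1.47 to -1.27) and CCNB1 at -1.27 (-1.32 to -1.22), and these intervals overlap. The intervals of CCNA2, at -1.17 (-1.24 to -1.10), and CCNB2, at -0.53 (-0.62 to -0.45), do not overlap that of CDK1. At 6 h CCNB1 was not down: it stood at 416.4, 362.5 and 497.1 CPM in tet-control at 0, 6 and 24 h and at 371.4, 373.2 and 205.6 CPM in tet-ZFP36L1, so its 6 h library in tet-ZFP36L1 was level with 0 h. CKS2, a small subunit bound to cyclin-dependent kinases, had the smallest induction difference of the 49, -0.35 (-0.51 to -0.18), and stood at 69.0, 65.6 and 72.8 CPM in tet-control at 0, 6 and 24 h and at 51.6, 66.7 and 42.7 CPM in tet-ZFP36L1. Its 24 h library in tet-ZFP36L1 was still the lowest of the 6, but the 0 h library of that line was already below all of the control line.

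CDC25B and CDC25C, phosphatases that remove the inhibitory phosphates of CDK1, differed by less than 2-fold. CDC25B had an induction difference of -0.92 (-1.02 to -0.81) and was counted as lower, and CDC25C, at -0.89 (-1.12 to -0.66), was not, because its own change was -0.49. Both started higher in tet-ZFP36L1 than in tet-control at 0 h, CDC25B by 0.61 and CDC25C by 0.44. Directly between the lines at 24 h, CDC25B was at -0.31 (-0.38 to -0.23) and CDC25C at -0.45 (-0.61 to -0.29), and these intervals overlap. At 6 h CDC25C had an induction difference of 0.60 (0.36 to 0.84), the highest of the members, to which both lines contributed: it stood at 25.3, 19.2 and 33.6 CPM in tet-control at 0, 6 and 24 h and at 34.5, 39.9 and 24.5 CPM in tet-ZFP36L1.

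Of the genes that act at the onset of anaphase, CDC20, the activator of the anaphase-promoting complex, had an induction difference of -0.97 (-1.05 to -0.90) at 24 h. PTTG1, the securin that restrains separase, had -1.17 (-1.28 to -1.06), and ESPL1, separase itself, -0.80 (-0.94 to -0.66). All of these were counted as lower. Of the transcription factors of late cell cycle genes, FOXM1 was counted as lower, at -1.10 (-1.18 to -1.03), while MYBL2, at -0.54 (-0.61 to -0.47), was not. That separation depends on the 0 h libraries, where MYBL2 was at -0.39 and FOXM1 at 0.19 in tet-ZFP36L1 relative to tet-control. Directly between the lines at 24 h, MYBL2 was at -0.94 (-0.99 to -0.89) and FOXM1 at -0.91 (-0.97 to -0.86), and these intervals overlap.

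Of the 13 kinetochore and checkpoint genes, 7 were counted as lower at 24 h, against 14.3% of all measured genes. By the 2-fold rule 2 were, against 4.97%, and 6.59% in the highest class of mean count. By both rules this group had the lowest share of the 4 role groups, and the median induction difference was -0.79. MAD2L1, the checkpoint protein that binds and holds CDC20 (ENSG00000164109, chr4:120055608-120067074, minus strand), stood at 146.8, 123.5 and 144.7 CPM in tet-control at 0, 6 and 24 h and at 148.3, 71.1 and 45.8 CPM in tet-ZFP36L1. The control libraries and the 0 h library of tet-ZFP36L1 spanned 123.5 to 148.3 CPM and the induced libraries lay below that span. The induction difference was -0.81 (-0.93 to -0.69) at 6 h and -1.66 (-1.79 to -1.54) at 24 h.

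The other checkpoint proteins moved less. BUB1B, which with MAD2L1 forms the inhibitor of the anaphase-promoting complex, had an induction difference at 24 h of -0.83 (-0.92 to -0.73), and the kinase BUB1 had -0.79 (-0.87 to -0.70). Both were counted as lower. TTK, the kinase that starts checkpoint signalling, at -0.58 (-0.70 to -0.45), and BUB3, the partner of BUB1 and BUB1B, at -0.52 (-0.59 to -0.44), were not. The interval of MAD2L1 does not overlap those of these 4 genes.

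The 4 subunits of the NDC80 complex, the main microtubule attachment of the kinetochore, did not move by equal amounts. NUF2 stood at 44.4, 38.5 and 51.2 CPM in tet-control at 0, 6 and 24 h and at 66.8, 42.3 and 25.7 CPM in tet-ZFP36L1. Its 24 h library in tet-ZFP36L1 was the lowest, from the highest 0 h start, and its induction difference was -1.56 (-1.75 to -1.37). The others were SPC25 at -0.92 (-1.09 to -0.75), SPC24 at -0.89 (-1.14 to -0.64) and NDC80 itself at -0.59 (-0.73 to -0.44). The interval of NUF2 overlaps none of the other 3, while those of SPC25 and SPC24 overlap, as do those of SPC24 and NDC80. That separation depends on the 0 h libraries. Compared directly between the lines at 24 h, NUF2 was at -0.98 (-1.13 to -0.83). This interval overlaps those of SPC25, at -0.75 (-0.87 to -0.62), and SPC24, at -0.70 (-0.89 to -0.52). It does not overlap that of NDC80, at -0.30 (-0.40 to -0.20).

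Of the centromere proteins, CENPE, a kinesin motor that moves chromosomes to the spindle equator, had an induction difference of -1.15 (-1.28 to -1.02) at 24 h and was counted as lower. CENPF, a large outer kinetochore protein, had -0.65 (-0.73 to -0.58). CENPA, the histone H3 variant that marks the centromere, had -0.45 (-0.64 to -0.25), and CENPN, which reads it, -0.45 (-0.61 to -0.29). These 3 were not counted as lower, and the last pair are, with CKS2, the members with the smallest induction differences.

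Of the 11 kinesins and spindle proteins, 8 were counted as lower at 24 h, against 14.3% of all measured genes. By the 2-fold rule 2 were, against 4.97%, and 6.59% in the highest class of mean count. The median induction difference was -0.87. HMMR, a microtubule-associated protein of the spindle poles (ENSG00000072571, chr5:163460203-163491945, plus strand), stood at 65.2, 48.7 and 73.5 CPM in tet-control at 0, 6 and 24 h and at 78.2, 44.2 and 29.5 CPM in tet-ZFP36L1. Its highest library was tet-ZFP36L1 at 0 h and its lowest the same line at 24 h. The induction difference was -1.56 (-1.73 to -1.40), and -0.40 (-0.57 to -0.23) at 6 h. KIF14, a kinesin needed for cytokinesis, stood at 92.6, 93.7 and 91.5 CPM in tet-control at 0, 6 and 24 h and at 107.1, 81.1 and 44.0 CPM in tet-ZFP36L1. Its control line stayed within 91.5 to 93.7 CPM, and its induction difference was -1.25 (-1.40 to -1.11).

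The motors of the central spindle followed: KIF20A had -1.10 (-1.19 to -1.01) and KIF23, a subunit of centralspindlin, -0.87 (-0.99 to -0.75). TPX2, which activates AURKA on the spindle, had -1.05. NUSAP1 and DLGAP5, which stabilise spindle microtubules, had -0.88 (-0.95 to -0.81) and -0.77 (-0.88 to -0.67), and KIF18A, which damps chromosome movement, had -0.82 (-0.98 to -0.65).

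The 3 motors of this group not counted as lower were KIF4A, a chromosome-bound kinesin, at -0.83 (-0.94 to -0.71), KIF11, which pushes the spindle poles apart, at -0.70 (-0.80 to -0.61), and KIF2C, a microtubule depolymerase, at -0.54 (-0.69 to -0.38). For KIF4A and KIF11 the induction difference passed 1.5-fold and the own change, -0.50 and -0.52, did not. KIF2C stood at 64.2, 58.2 and 67.4 CPM in tet-control at 0, 6 and 24 h and at 70.2, 90.5 and 50.7 CPM in tet-ZFP36L1, with its highest library in tet-ZFP36L1 at 6 h.

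Of the 9 genes of cytokinesis and the chromosome passengers, 8 were counted as lower at 24 h, against 14.3% of all measured genes. By the 2-fold rule 3 were, against 4.97%, and the median induction difference was -0.94. PRC1, which bundles the antiparallel microtubules of the midzone (ENSG00000198901, chr15:90966038-90995629, minus strand), stood at 230.1, 240.7 and 278.6 CPM in tet-control at 0, 6 and 24 h and at 210.7, 158.0 and 99.1 CPM in tet-ZFP36L1. Its 24 h value in tet-ZFP36L1 was 0.472 times the 0 h value, and its induction difference was -1.36 (-1.45 to -1.27). ECT2, the exchange factor that activates RhoA at the division plane, stood at 333.0, 262.1 and 306.2 CPM in tet-control at 0, 6 and 24 h and at 254.3, 174.2 and 100.2 CPM in tet-ZFP36L1. It was also a little lower in tet-control at 24 h, and its induction difference was -1.22 (-1.31 to -1.13).

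ANLN, a scaffold of the contractile ring, had an induction difference of -1.17 (-1.24 to -1.10) at 24 h and -0.82 (-0.89 to -0.75) at 6 h. The 6 h value rests on both lines, since ANLN stood at 314.2, 446.2 and 352.4 CPM in tet-control at 0, 6 and 24 h and at 410.1, 329.7 and 203.7 CPM in tet-ZFP36L1. In tet-ZFP36L1 its 6 h own change was -0.31, so it was not counted as lower there.

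The 4 subunits of the chromosomal passenger complex were all counted as lower. The kinase AURKB had an induction difference of -0.94 (-1.07 to -0.81), its scaffold INCENP -0.94 (-1.07 to -0.82), CDCA8, borealin, -0.96 (-1.07 to -0.85), and BIRC5, survivin, -0.76 (-0.86 to -0.66). The intervals of all 4 overlap. TOP2A, the topoisomerase that untangles sister chromatids, had -0.81 (-0.86 to -0.76). MKI67, the Ki-67 antigen of the chromosome surface and a marker of proliferation, was the member of this group not counted as lower, with an induction difference of -0.83 (-0.87 to -0.78) and an own change of -0.34. MKI67 stood at 716.2, 1190.5 and 1000.7 CPM in tet-control at 0, 6 and 24 h and at 801.5, 1170.9 and 631.8 CPM in tet-ZFP36L1, so it was high at 6 h in both lines.

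At 6 h the members stood near their starting level as a group. The median induction difference was 0.01, against -0.01 over all genes, and 3 members were counted as lower, UBE2S, UBE2C and MAD2L1, a share below the 8.85% of all genes. With the 2-fold rule these were UBE2S and UBE2C, against 2.54% of all genes. None was counted as higher, against 3.06%. Counting intervals of the induction difference lay wholly below 0 for 20 members, against 31.1% of all genes, and wholly above for 21, against 29.5%. By role the 6 h medians were -0.10 for regulators, 0.19 for kinetochore and checkpoint genes, 0.11 for kinesins and spindle proteins, and -0.19 for cytokinesis and passengers.

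For the members as a group, most of the change in tet-ZFP36L1 lay between the 6 h and 24 h libraries. Exceptions in that line were UBE2S, UBE2C, MAD2L1 and HMMR, which fell more by 6 h. Their own changes were -1.83, -1.01, -1.06 and -0.82 at 6 h, and -0.46, -0.61, -0.63 and -0.58 from 6 h to 24 h. From 6 h to 24 h all 49 members were lower in that line, against 55.1% of all genes, and 37 were at least 1.5-fold lower, against 8.48%. The median was -0.67, from KIF23 at -0.99 to SPC24 at -0.39. This comparison uses neither the 0 h libraries nor tet-control. In tet-control the same step had a median of 0.22, and 43 of the 49 were above 0, against 50.9% of all genes.

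**Figure D4:**
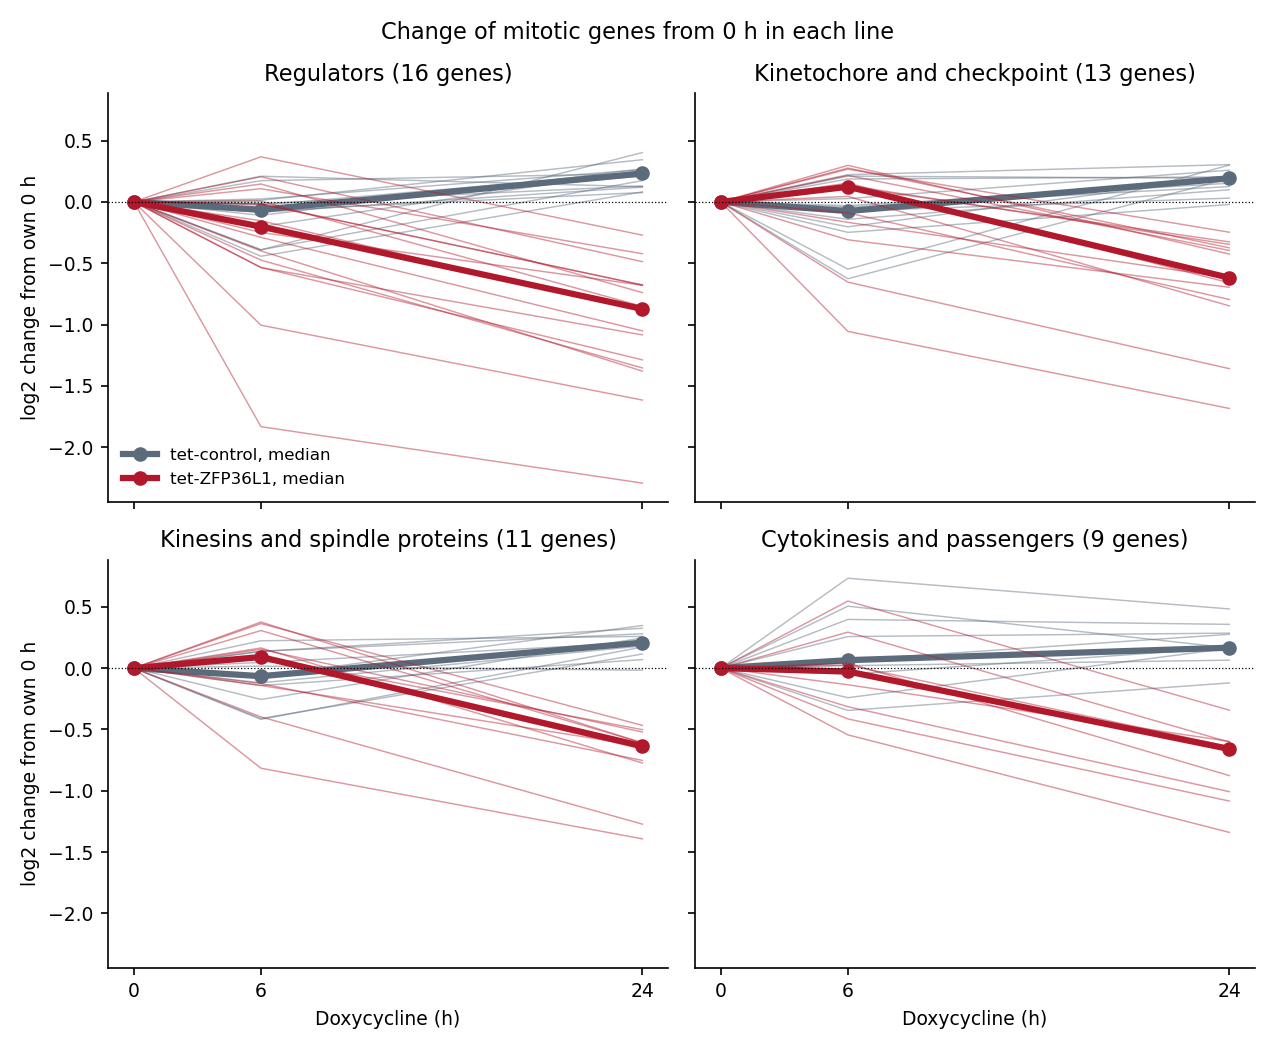
Change from the line's own 0 h library (log2) at 0, 6 and 24 h for each member (thin lines) and the role group's median (thick lines), tet-control in grey and tet-ZFP36L1 in red. The medians in tet-ZFP36L1 at 24 h are -0.87 for regulators, -0.62 for kinetochore and checkpoint, -0.64 for kinesins and spindle proteins and -0.66 for cytokinesis and passengers, and the thin red lines that are low already at 6 h are UBE2S, UBE2C, MAD2L1, HMMR and NUF2.

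Other mitotic genes on a list of 64, none of them a member, were mostly lower as well, with exceptions. Of the 63 measured, 34 were counted as lower at 24 h, against 14.3% of all measured genes, with a median of -0.72. Another 2 were counted as higher, against 9.45% of all genes. The lowest were PBK, a mitotic kinase, at -1.66 (-1.92 to -1.40), and DEPDC1 at -1.60 (-1.74 to -1.45). The 2 higher ones were kinetochore genes: CENPT, which links centromeric chromatin to the NDC80 complex, at 1.48 (1.26 to 1.70), and KNL1, the scaffold that recruits BUB1 and BUB3, at 2.34 (2.23 to 2.45).

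KNL1 stood at 107.6, 119.1 and 119.1 CPM in tet-control at 0, 6 and 24 h and at 87.3, 596.2 and 491.5 CPM in tet-ZFP36L1, so the induced libraries lay above the other 4 by several-fold at both times. Most of the counts lay in 3 of its 12 annotated transcripts, and each of these was higher after induction: in tet-ZFP36L1, KNL1-202 held 723.9, 6213.8 and 4451.4 estimated counts at the 3 times, KNL1-201 held 793.8, 3756.9 and 4222.2, and one annotated as subject to nonsense-mediated decay held 111.9, 1333.7 and 1820.3. A further transcript of that kind was lower, with 87.0 counts at 0 h and 3.5 at 24 h. CENPT stood at 25.8, 49.8 and 27.9 CPM in tet-control at 0, 6 and 24 h and at 25.5, 79.3 and 77.8 CPM in tet-ZFP36L1, and the 6 h control library was also above its 0 h.

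Genes of neighbouring complexes are set beside the members. Over all measured genes 14.3% were counted as lower at 24 h, and 19.4% in the highest class of mean count. The share counted as higher was 9.45%, so in lists this short 0 or 1 higher is near it. Of 8 condensin genes, which compact mitotic chromosomes, 5 were counted as lower at 24 h and 0 higher, with a median of -0.71, led by NCAPG2 at -1.23 (-1.31 to -1.14) and NCAPD3 at -1.08 (-1.18 to -0.99). NCAPH2 was highest, at 0.13 (-0.03 to 0.29). Of 13 cohesin genes 3 were lower, or 23.1%, a share near that of the highest class of mean count, and 0 were higher. Their median was -0.45, with SMC3 lowest at -0.91 (-1.02 to -0.81) and ESCO1 highest at 0.37 (0.18 to 0.56).

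The core subunits of the anaphase-promoting complex itself, 14 genes, had a median of 0.01, with 0 lower and 1 higher, while the 3 members that serve it, UBE2S, UBE2C and CDC20, were all lower. ANAPC10 was lowest at -0.77 (-1.22 to -0.32) and CDC26 highest at 0.64 (0.42 to 0.86). Of 14 genes of the DREAM and MuvB complexes and NF-Y, which act on promoters of late cell cycle genes, 4 were lower and 1 higher. The share lower was 28.6%, against 14.3% of all measured genes, and the median was -0.43. LIN9, a MuvB subunit, was lowest at -1.11 (-1.37 to -0.86), followed by NFYC, a subunit of NF-Y, at -0.95 (-1.09 to -0.81), and TFDP2, a partner of E2F proteins, was highest at 0.99 (0.79 to 1.18).

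Promoters of late cell cycle genes are known for CCAAT boxes, bound by NF-Y, and for the cell cycle homology region (CHR), bound by MuvB complexes. RefSeq promoters on GRCh38.p14, 250 bases before to 50 after the annotated start, were matched for 42 of the 49 members, and AURKA, BIRC5, BUB3, FOXM1, TPX2, TTK and UBE2C were not matched. Shown are, for each role group, the CHR-holding member with the lowest induction difference at 24 h (PLK1, MAD2L1, HMMR, PRC1), and CKS2, the member with the highest. They lie at chr16:23678639-23678938 on the plus strand for PLK1, chr4:120066799-120067098 on the minus strand for MAD2L1, chr5:163460382-163460681 on the plus strand for HMMR, chr15:90994486-90994785 on the minus strand for PRC1 and chr9:89310945-89311244 on the plus strand for CKS2. Each is written 5′ to 3′ on the gene's strand, with capitals for CCAAT boxes and CHR matches. A CCAAT box that lies on the other strand reads ATTGG here. The CHR was searched as TTTGAA or TTCGAA, and a match to the former on the other strand reads TTCAAA.
PLK1: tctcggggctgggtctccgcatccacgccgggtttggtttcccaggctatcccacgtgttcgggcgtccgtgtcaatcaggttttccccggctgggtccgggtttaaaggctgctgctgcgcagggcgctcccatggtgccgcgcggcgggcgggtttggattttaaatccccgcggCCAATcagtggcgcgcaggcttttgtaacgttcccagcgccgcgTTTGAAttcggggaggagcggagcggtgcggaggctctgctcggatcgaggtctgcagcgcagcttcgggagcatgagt
MAD2L1: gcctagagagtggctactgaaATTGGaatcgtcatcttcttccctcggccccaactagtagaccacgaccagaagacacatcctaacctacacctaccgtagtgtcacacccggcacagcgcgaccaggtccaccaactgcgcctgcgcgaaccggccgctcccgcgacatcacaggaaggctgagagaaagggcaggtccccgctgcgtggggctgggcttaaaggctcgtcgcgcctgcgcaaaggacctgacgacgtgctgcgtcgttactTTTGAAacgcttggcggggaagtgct
HMMR: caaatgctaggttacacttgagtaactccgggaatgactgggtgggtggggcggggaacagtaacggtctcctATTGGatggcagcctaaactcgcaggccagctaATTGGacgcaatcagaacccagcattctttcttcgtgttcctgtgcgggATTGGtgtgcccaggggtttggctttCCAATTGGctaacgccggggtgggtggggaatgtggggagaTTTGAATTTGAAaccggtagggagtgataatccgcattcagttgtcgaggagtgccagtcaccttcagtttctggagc
PRC1: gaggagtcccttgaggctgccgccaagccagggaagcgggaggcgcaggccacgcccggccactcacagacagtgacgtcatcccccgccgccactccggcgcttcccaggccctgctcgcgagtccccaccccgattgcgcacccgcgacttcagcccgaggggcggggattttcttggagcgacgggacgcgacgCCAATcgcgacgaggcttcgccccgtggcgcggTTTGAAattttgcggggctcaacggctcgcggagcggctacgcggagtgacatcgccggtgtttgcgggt
CKS2: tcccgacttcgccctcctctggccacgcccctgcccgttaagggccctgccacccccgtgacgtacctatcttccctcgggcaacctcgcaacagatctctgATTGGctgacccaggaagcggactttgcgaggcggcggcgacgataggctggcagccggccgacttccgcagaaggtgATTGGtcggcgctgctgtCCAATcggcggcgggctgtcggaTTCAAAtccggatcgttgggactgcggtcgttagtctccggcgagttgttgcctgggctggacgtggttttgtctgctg

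In the sequences above, PLK1, HMMR, PRC1 and CKS2 have a CCAAT box upstream of a CHR close to the start. The box nearest the CHR begins at base -73 in PLK1, -66 in HMMR, -53 in PRC1 and -52 in CKS2, and the first CHR at -29, -28, -20 and -29, counted from the start as base 1. HMMR has 2 CHR matches in a row and 5 CCAAT matches, a pair of which overlap. MAD2L1 differs, with its CCAAT match at -229 and its CHR downstream of the start, at 25. CKS2, with the smallest induction difference, and PLK1, with one of the largest, both have a CHR that begins at -29, on the gene's strand in PLK1 and on the other in CKS2, and CKS2 has 3 CCAAT matches against 1 in PLK1. The rank of CKS2 depends on the 0 h libraries. Directly between the lines at 24 h it was at -0.76 (-0.88 to -0.65), against a median of -0.87 over the members. A match is a description of letters, not a measured site.

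Over the 42 matched members, a CHR (either strand, TTTGAA or TTCGAA) was found in 30 promoters, or 71.4%, against 10.8% of the 9092 measured genes with a promoter and 16.6% of all 27305 promoters of this length. CCAAT on either strand was found in 33, or 78.6%, against 37.2% and 35.7%. Both were found in 26, or 61.9%, against 4.70% and 6.58%. These motifs were known for mitotic genes, so the shares describe the list and not these libraries. By role a CHR was present in 6 of 13 regulators, 9 of 11 kinetochore and checkpoint genes, 8 of 10 kinesins and spindle proteins, and 7 of 8 genes of cytokinesis and passengers.

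The matches lay close to the start. A CHR within 60 bases of it, a window chosen after seeing the positions, was found in 27 members, or 64.3%, against 3.02% of the 9050 other measured genes. CCAAT began between -75 and -50 in 22 members, or 52.4%, against 10.5%.

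**Figure D5:**
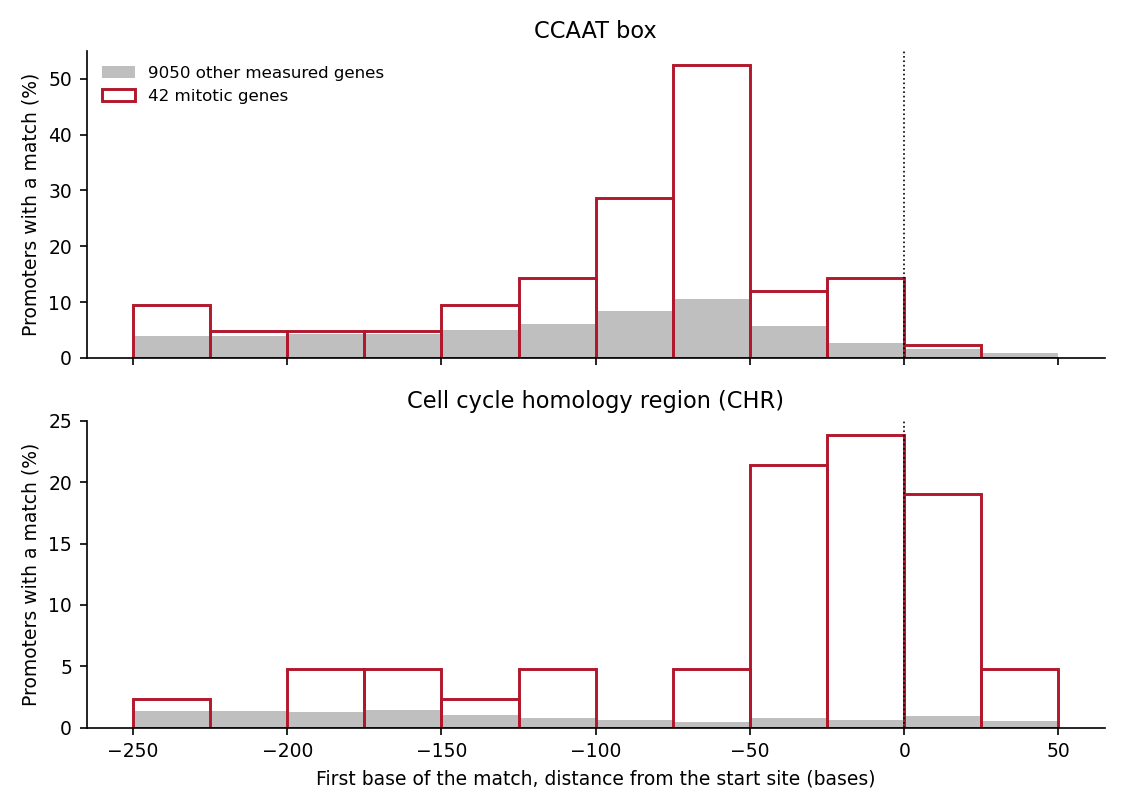
Share of promoters (%) with a CCAAT (upper panel) or CHR (lower panel) match that begins in each 25-base window, by distance from the start site in bases, for 42 mitotic genes (red outline) and 9050 other measured genes (grey). CCAAT peaks at 52.4% of members between -75 and -50, and CHR at 23.8% just before the start.

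Within the members those without a CHR match in the searched window had the lower median, while the shares counted as lower were nearly equal. The 30 with a CHR had a median induction difference at 24 h of -0.86, and 22 of them, or 73.3%, were counted as lower. The 12 without had a median of -1.02 and 9, or 75.0%, counted as lower. UBE2S, the member with the largest change, has no CHR in this window. Among the 9050 measured genes that are no members, the 273 with a CHR within 60 bases of the start had a median of -0.32, against -0.02 for all 9050, and 27.1% of them were counted as lower, against 14.4%. Other mitotic genes are among those 273, so this set is not separate from the pathway.

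ZFP36L1 binds the AU-rich letters UAUUUAU, written TATTTAT here, and a minority of the members held them in the 3' UTR. In the transcript with the highest mean TPM among those with an annotated 3' UTR of 50 bases or more (GENCODE 29), which for CCNB1, INCENP and CENPN is not the gene's leading transcript, 6 of 49 members, or 12.2%, had at least 1 copy, against 27.8% of 10989 measured genes, and the median 3' UTR was 620 bases against 863. The 6 are shown as 29-base windows, 5′ to 3′, with the match in capitals. KIF14 has 3 copies, of which the first is shown, and the others have 1.
PRC1: tgaagcactatTATTTATtcttccgctgt
KIF14: tttaaaatatcTATTTATcaaaggccaga
ECT2: agagtacggtaTATTTATggtaattttat
ANLN: gtattatgcagTATTTATatcttttgtat
CENPE: ttgaattgtttTATTTATttgtatatttt
KIF23: acaaatgctgcTATTTATtagctgcaaga

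These 6 had a median induction difference at 24 h of -1.20, and the 43 without had -0.89. At 6 h the medians were -0.31 and 0.03. Over all measured genes the medians were -0.29 (6 h) and -0.27 (24 h) with at least 1 copy, and 0.09 and 0.05 without. None of the 16 regulators had the motif, UBE2S and UBE2C included, and neither did MAD2L1, so the 3 members counted as lower at 6 h are all without it in the transcript searched. For MAD2L1 that transcript, MAD2L1-202, is annotated as subject to nonsense-mediated decay. The 3' UTR of its coding transcripts was therefore not searched. Motif counts rise with 3' UTR length, and no match says only that these letters are not in this window.

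Reads of some members may be shared with near copies. The largest share of 31-base words found in another gene's transcripts was 28.6% for KIF4A (KIF4B), then 25.1% for CDC20 (CDC20P1), 24.0% for AURKA, 22.0% for PTTG1 (PTTG3P), 19.98% for UBE2S (UBE2SP1) and 16.0% for MAD2L1, and no member reached 50%. FOXM1 overlaps ITFG2 on the other strand over 23.5% of its exon bases and CCNA2 overlaps EXOSC9 over 9.08%, and the sources used here do not say whether reads were counted by strand. Shares of the gene's TPM in single transcripts shifted in both lines. From 0 to 24 h the largest shift of any transcript was at least 10 percentage points in 10 members in tet-ZFP36L1, with a median of 5.56 over the 49, and in 7 members in tet-control, with a median of 4.68. The largest were 24.1 points for NUF2 in tet-ZFP36L1 and 17.7 points for SPC24 in tet-control. NUF2 and HMMR are among the members with large differences: in tet-ZFP36L1 the share of NUF2-201 changed from 62.9% to 42.4% of the TPM and that of HMMR-202 from 56.9% to 77.6%. For MAD2L1 the leading transcript, MAD2L1-202, is annotated as subject to nonsense-mediated decay and held 55.1% of the TPM in tet-ZFP36L1 at 0 h and 61.8% at 24 h, so the gene sums include RNA not annotated as coding.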

How the data were processed

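Column-purified total RNA from 6 cultures of J82 was sequenced on a BGISEQ-500, per the labels' protocols. Per the submitters' processing notes, kallisto, DESeq2 and the build hg19 were used, with no versions named. The strand setting was not given in the sources used here. The authors deposited estimated counts and TPM for 196354 transcripts per library. Of these, 181857 were matched to GENCODE 29 on GRCh38, and unmatched ones held 5.12% to 5.46% of counts. Gene positions are those of GRCh38, and none was converted from hg19.

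Estimated counts were summed per gene, rounded, and scaled by TMM (edgeR 4.0.16, R 4.3.3) over genes averaging 10 or more counts. Genes averaging 50 or more were analysed as log2(CPM + 0.5), a scale that shrinks changes at low counts. The deposited TPM, summed per gene, served to compare levels between genes and as an alternative. Groups come from the sample titles. With 1 library per group no test was run, so genes are counted by size, and 95% intervals come from counts by the delta method. The counting was tested on simulated data. Promoters are RefSeq sequences, and 3' UTRs of at least 50 bases come from GENCODE transcripts. Tables were made with Python 3.11.15, numpy 2.4.6 and pandas 2.3.3.

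The members and all gene lists were chosen with earlier results of these data known. The genes named are all 49 members, ZFP36L1, and the 2 lowest and 2 highest of each neighbouring list at 24 h; the text gives part of the last. The promoters shown are the CHR-holding member with the lowest difference in each role group and the member with the highest difference of all. Cell markers were 4 keratins, 10 urothelial, 4 mesenchymal, 5 leukocyte and 3 endothelial genes, with summed values in the report. The alternatives tried were plain CPM, size factors from DESeq2 1.42.0, TPM, other count minimums, pseudocounts, thresholds and criteria, 1 strand for motifs, and, added after seeing the data, centring on genes of like mean count.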

Additional observations from a re-analysis of the deposited data

Results flagged for a closer look

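The median induction difference of the 49 members at 24 h, -0.92, is listed because the lines moved in opposite directions: the median own change was -0.68 in tet-ZFP36L1 and 0.20 in tet-control. The regulators at 24 h, with a median of -1.11, are listed because each of the 16 was lower than at 0 h in tet-ZFP36L1 and higher in tet-control. With 1 library per group neither difference was tested.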

How the results depend on the processing

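No paired analysis was possible because each group has 1 library and the labels carry no replicate numbers; for the same reason no library could be left out. Of 104 values recomputed under the alternatives, 88 kept their direction and stayed within the counting interval or within 1.5 times the count, 15 moved and 1 reversed. No count minimum removed a member and the scaling was not refitted, so values under the other count minimums equal those in the report. They could not move, yet they are among the 88, so that number overstates how stable the results are. The promoter shares rest on the 42 members with a matched promoter. The number lower at 24 h was 36 in the report, against 14.3% of all genes, and 30, against 11.3%, with a pseudocount of 5. It was 28, against 10.6%, with the deposited TPM and 22, against 9.72%, with plain CPM. After centring on genes of like mean count it was 22, against 13.6%, and with a 2-fold threshold 14, against 4.97%. With plain CPM the median at 24 h was -0.75 for the induction difference, -0.53 for the own change in tet-ZFP36L1 and -0.68 between the lines; with the deposited TPM it was -0.77 for the induction difference and -0.66 between the lines; after centring these 3 medians were -0.74, -0.55 and -0.60. Plain CPM moved the median of all genes at 24 h from -0.02 to 0.15, and TPM moved it to 0.10. At 6 h the median of 0.01 became -0.0086 after centring. Between the lines at 6 h, 6 members were lower, in place of 3, against 15.3% of all genes, and 8 higher, in place of 0, against 12.4%, and 1 was higher by the induction difference alone. CCAAT on the given strand alone was in 45.2% of matched members. The causes were not tested. Counts per library limit the precision of single genes: the median half-width of the counting interval was 0.11 at 24 h. Culture-to-culture variation is unknown.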
